A study of Desmophyllum pertusum with 36 samples.

Results

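In the deep-sea coral Lophelia pertusa, filed under its current name Desmophyllum pertusum, 56 of 75743 transcripts were missing from 1 of 3 colonies and well covered in the other 2 (n = 3 libraries per colony). They were chosen from the measured counts of the 9 libraries kept at pH 7.6. A transcript was taken when all 3 libraries of a colony held 2 counts or fewer and each of the 6 libraries of the other colonies held 50 counts or more. By this rule 16 transcripts were missing from colony 1, 13 from colony 3 and 27 from colony 4. The absence at pH 7.6 is therefore given by the choice and is described here without a test. The 9 libraries at pH 7.9 were not used in choosing them.

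Fragments of 3 genetically distinct colonies, labelled 1, 3 and 4, were kept at pH 7.6, the low-pH treatment, or at pH 7.9. Polyps were taken at week 2, week 4.5 and week 8.5, which gave 1 library for each colony, pH and week, or 18 libraries, each read in 2 lanes that were summed. RNA was taken from whole polyps, so fewer cells of a type and less RNA per cell cannot be told apart in any value below. Libraries of different weeks from a colony come from 1 genotype, and nothing in the labels says whether fragments were held in separate tanks, so p-values measure only the spread between these libraries.

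Lophelia pertusa builds deep reefs and lives without algal symbionts, so its polyps yield RNA of the animal and of the microbes it carries. Colonies of a coral can be separate genotypes, and genotypes of a species can differ in which genes they carry, in which they transcribe, and in the sequence of those they share. A transcript can lack counts in a colony because the gene is not there, because it is silent, or because that colony's copy differs too far from the sequence the reads were matched to. Counts alone cannot tell these apart, nor whether a transcript is of the coral or of the microbes it carries. The counts pair transcript numbers with no gene name and no sequence, so no function is given to any member.

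Library totals ran from 18042191 to 25651213 counts, and TMM factors, which correct totals for composition, from 0.825 to 1.17. Each library was compared with the colonies at pH 7.6 by Spearman correlation over 50421 other transcripts, with members left out. Each of the 9 libraries at pH 7.6 was most like the other libraries of its own colony. At pH 7.9, 4 of 9 libraries were most like the colony on their label, namely colony 1 at week 2 and colony 4 at all 3 weeks. The other 5 stood apart from their labels. The libraries labelled colony 1 at weeks 4.5 and 8.5 were most like colony 3, with a mean rho of 0.928 and 0.901 against 0.854 and 0.881 to colony 1. The library labelled colony 3 at week 2 was most like colony 4, with 0.934 against 0.843 to colony 3. Those labelled colony 3 at weeks 4.5 and 8.5 were most like colony 1, with 0.949 and 0.942 against 0.847 and 0.812. These correlations describe the libraries, which share depth and transcript composition. Whether labels were exchanged among these libraries was not tested, and every value given by label for the 5 holds only if its label is right. The labels are kept except where a grouping by likeness is stated. For edgeR, log2 fold changes at pH 7.9 are also given without those 5, where libraries of the colony remain. Those 5 were picked out by measured likeness, so such a fit does not test a list.

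At pH 7.6 the separation between the colonies was wide for every list, as the rule requires. Counts summed over the 16 transcripts missing from colony 1 were 12, 10 and 15 in colony 1 at weeks 2, 4.5 and 8.5, against 1987 to 5346 in colonies 3 and 4. Those of the 13 transcripts missing from colony 3 summed to 7, 11 and 8 in colony 3, against 1760 to 2169 elsewhere. The 27 transcripts missing from colony 4 summed to 18, 16 and 10 in colony 4, against 3748 to 5761 elsewhere. Only a few reached 0 in all 3 libraries of the lacking colony, namely 3 of 16, 1 of 13 and 8 of 27. Of the transcripts that held 50 counts or more in all 6 libraries of the other colonies, the members made up 0.0668% of 23958 for colony 1, 0.0506% of 25705 for colony 3 and 0.114% of 23682 for colony 4.

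The thresholds cut through a graded edge. The highest library of the lacking colony held 2 counts, the limit, in 8, 5 and 8 members of the lists for colonies 1, 3 and 4. Just outside, 9, 1 and 10 transcripts met the floor but reached 3 counts in the lacking colony. At the floor, the lowest holding library had 50 to 59 counts in 5, 2 and 11 members, and 8, 2 and 6 transcripts fell just outside with 40 to 49.

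The members were thinly read even where they were held. Their mean in the 6 holding libraries, in CPM, the count scaled to a common library size, ran from 3.15 to 29.9 with a median of 7.67 in the list for colony 1. It ran from 3.44 to 12.7 with a median of 5.90 in that for colony 3, and from 3.41 to 30.1 with a median of 6.44 in that for colony 4. All transcripts with the same floor had a median of 13.7, 12.4 and 13.7 CPM in the same libraries, and 74.1%, 79.3% and 81.5% of them lay above the members' median. CPM is not corrected for transcript length, so these values compare read depth and not expression between genes.

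**Figure D1:**
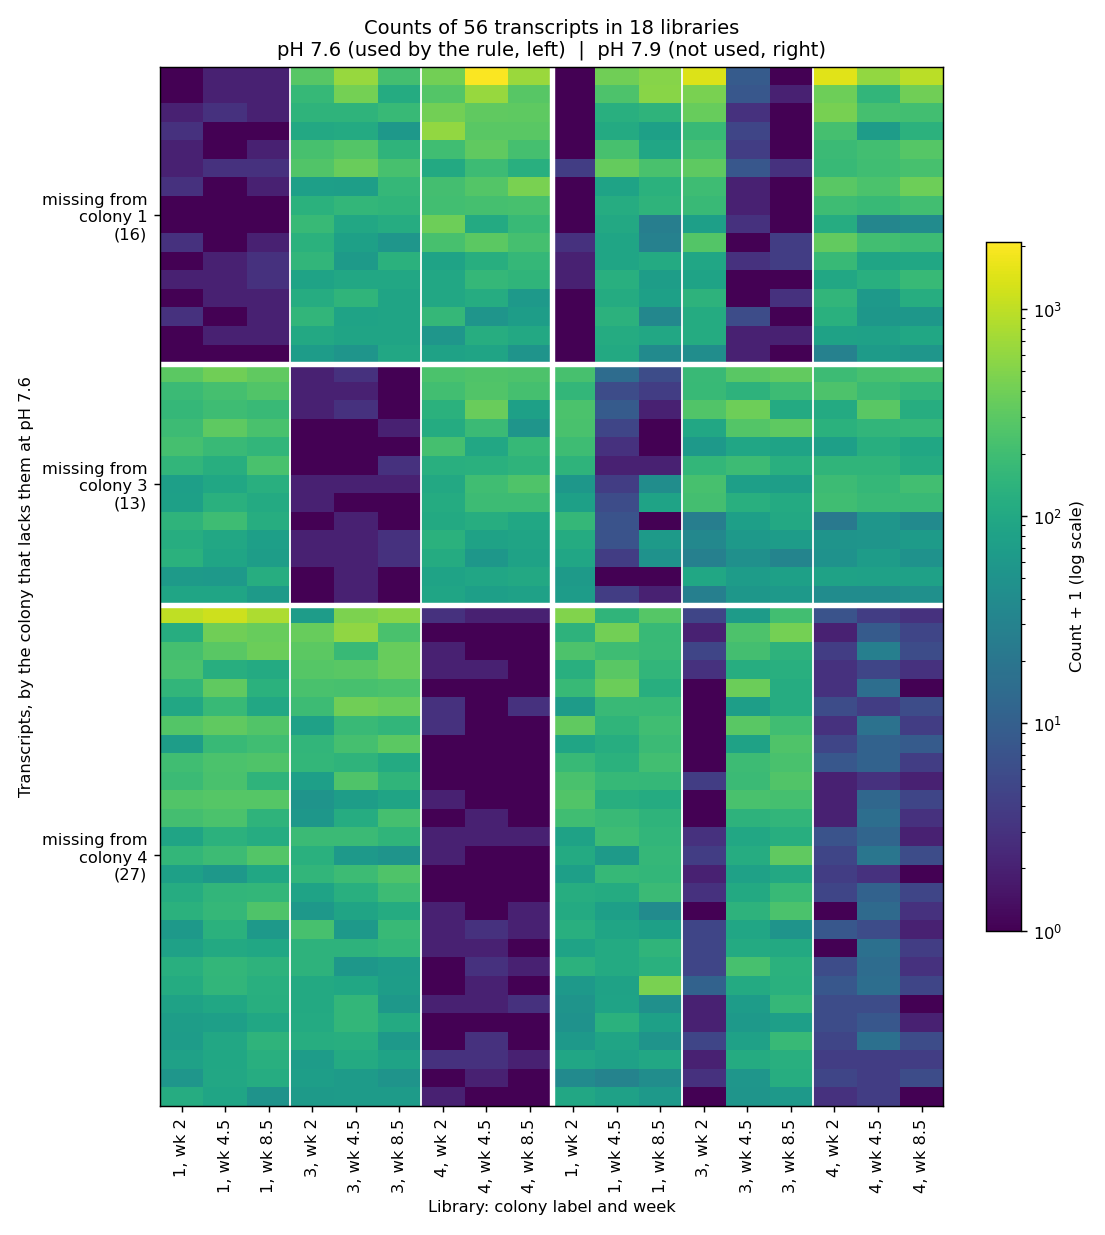
Counts plus 1, on a logarithmic colour scale, of the 56 transcripts (lines of the map, grouped by the colony that lacks them at pH 7.6) in each of the 18 libraries (columns, by colony label and week). The dark blocks at pH 7.6 follow from the rule. At pH 7.9 the list for colony 4 is dark under colony 4 and under the library labelled colony 3 at week 2. The list for colony 1 is dark under colony 1 at week 2 and under the libraries labelled colony 3 at the later weeks. The list for colony 3 is dark, in part or in full, under the libraries labelled colony 1 at the later weeks.

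The question put to the pH 7.9 libraries was whether a transcript missing from a colony at pH 7.6 was missing there too. For the 27 transcripts missing from colony 4 the gap was seen again in all 3 libraries of colony 4. Their counts summed to 94, 267 and 75 in colony 4 at weeks 2, 4.5 and 8.5, against 3801, 3947 and 3940 in the libraries labelled colony 1. The libraries labelled colony 3 held 53, 3693 and 4523. Colony 4 was low at every week, and the colony 3 library of week 2 was as low as colony 4.

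For colony 4 the most deeply read member was Transcript_73092, with 2, 1 and 1 counts in colony 4 at pH 7.6 in order of week. It had 995, 1172 and 808 in colony 1 and 67, 468 and 532 in colony 3. At pH 7.9 it had 6, 3 and 2 counts in colony 4, 488, 147 and 275 in colony 1, and 4, 66 and 204 in colony 3. Colony 4 overlapped colony 3 only through the week 2 library. Transcript_2871 was at 0 in all 3 colony 4 libraries at pH 7.6, and had 115, 399 and 349 counts in colony 1 and 351, 590 and 234 in colony 3. At pH 7.9 it had 1, 8 and 4 counts in colony 4, 140, 417 and 171 in colony 1, and 1, 247 and 422 in colony 3. It shows the same arrangement, with the colony 3 library of week 2 inside the range of colony 4.

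In edgeR's quasi-likelihood test over the 9 libraries at pH 7.9, colony 4 against the mean of colonies 1 and 3, 0 of 27 members passed a Benjamini-Hochberg adjusted p of 0.05, and 0% of all 52289 transcripts tested were called lower. All 27 had an unadjusted p under 0.05, as had 8502 of all transcripts, and DESeq2 called 25 of the 27 lower against a background of 2.21%. The log2 fold change of Transcript_73092 was -5.58 ± 1.19 (SE, edgeR, Benjamini-Hochberg adjusted p = 0.221), and that of Transcript_2871 was -5.81 ± 1.43 (edgeR, adjusted p = 0.221). The median over the 27 was -4.41, against -0.04 over all transcripts tested. With the colony 3 library of week 2 left out, edgeR called 27 of 27 lower, against a background of 5.08%. Of the 9 fits without 1 library, this was the only one that called any member of the list. With all 5 libraries that stood apart left out, 1 library of colony 1 and 3 of colony 4 remain. That fit called 27 of 27, against 5.34%, with log2 fold changes of -7.19 for Transcript_73092 and -5.16 for Transcript_2871. It takes its spread from colony 4 alone and assumes that the lone colony 1 library varies likewise.

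The lists for colonies 1 and 3 did not keep to the colony labels at pH 7.9. The 16 transcripts missing from colony 1 summed to 7 counts in the week 2 library of colony 1, but to 2503 and 2346 in its libraries of weeks 4.5 and 8.5. In the libraries labelled colony 3 they summed to 4207, 44 and 12, and in colony 4 to 4500, 2572 and 3607. The low libraries were colony 1 at week 2 and colony 3 at weeks 4.5 and 8.5, the same 3 libraries that were most like colony 1 over the other transcripts.

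Transcript_85809 had 0, 1 and 1 counts in colony 1 at pH 7.6, 289, 653 and 212 in colony 3 and 413, 2014 and 669 in colony 4. At pH 7.9 it had 0, 395 and 524 in colony 1, 1404, 8 and 0 in colony 3, and 1508, 606 and 952 in colony 4. Transcript_55950 had 0, 1 and 1 in colony 1 at pH 7.6, 169, 428 and 111 in colony 3 and 267, 648 and 283 in colony 4. Both were thus present at weeks 4.5 and 8.5 in libraries labelled with the colony that lacked them. At pH 7.9 Transcript_55950 had 0, 247 and 531 in colony 1, 447, 7 and 1 in colony 3, and 383, 152 and 397 in colony 4. The libraries labelled colony 1 and colony 3 overlapped in both transcripts, while colony 4 was high throughout.

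The 13 transcripts missing from colony 3 at pH 7.6 summed to 1566, 1867 and 1653 counts in the libraries labelled colony 3 at pH 7.9, so libraries with that label held them at every week. They summed to 1531, 1756 and 1549 in colony 4. In the libraries labelled colony 1 they summed to 1828, 60 and 248. The low libraries were colony 1 at weeks 4.5 and 8.5, which were most like colony 3 over the other transcripts.

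Transcript_30822 had 305, 399 and 325 counts in colony 1 at pH 7.6, 1, 2 and 0 in colony 3 and 239, 258 and 250 in colony 4. At pH 7.9 it had 229, 14 and 5 in colony 1, 175, 297 and 329 in colony 3, and 188, 229 and 243 in colony 4. Transcript_61856 had 184, 219 and 266 in colony 1 at pH 7.6, 1, 1 and 0 in colony 3 and 207, 261 and 220 in colony 4. At pH 7.9 both stood low in the libraries of weeks 4.5 and 8.5 labelled colony 1 and in none labelled colony 3. At that pH Transcript_61856 had 156, 5 and 3 in colony 1, 171, 141 and 187 in colony 3, and 247, 184 and 154 in colony 4.

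By label, edgeR called 0 of 16 members lower in colony 1 and 0 of 13 lower in colony 3 at pH 7.9, against 0% of 52289 in each comparison. None of these members had an unadjusted p under 0.05, against 11015 and 4436 of all transcripts, and DESeq2 called 0 of 16 and 0 of 13, against 2.99% and 0.0325%. The median log2 fold change of the 16 was -0.16, against 0.04 over all transcripts, and that of the 13 was 0.73, against 0.01. Transcript_85809 stood at -1.29 ± 1.70 (SE, edgeR, adjusted p = 0.694) and Transcript_55950 at 0.12 ± 1.43 (edgeR, adjusted p = 0.972). Transcript_30822 stood at 1.04 ± 0.87 (SE, edgeR, adjusted p = 0.710) and Transcript_61856 at 0.73 ± 0.91 (edgeR, adjusted p = 0.808). With the colony 3 library of week 2 left out, edgeR called 0 of 16 and 0 of 13, against backgrounds of 0.0807% and 0%. With the 5 libraries left out, edgeR called 16 of 16 lower in colony 1, against a background of 5.09%. Here colony 1 is a lone library with no spread of its own, which is assumed to vary like the 3 of colony 4. The list for colony 3 could not then be tested, since no library of that label was left.

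**Figure D2:**
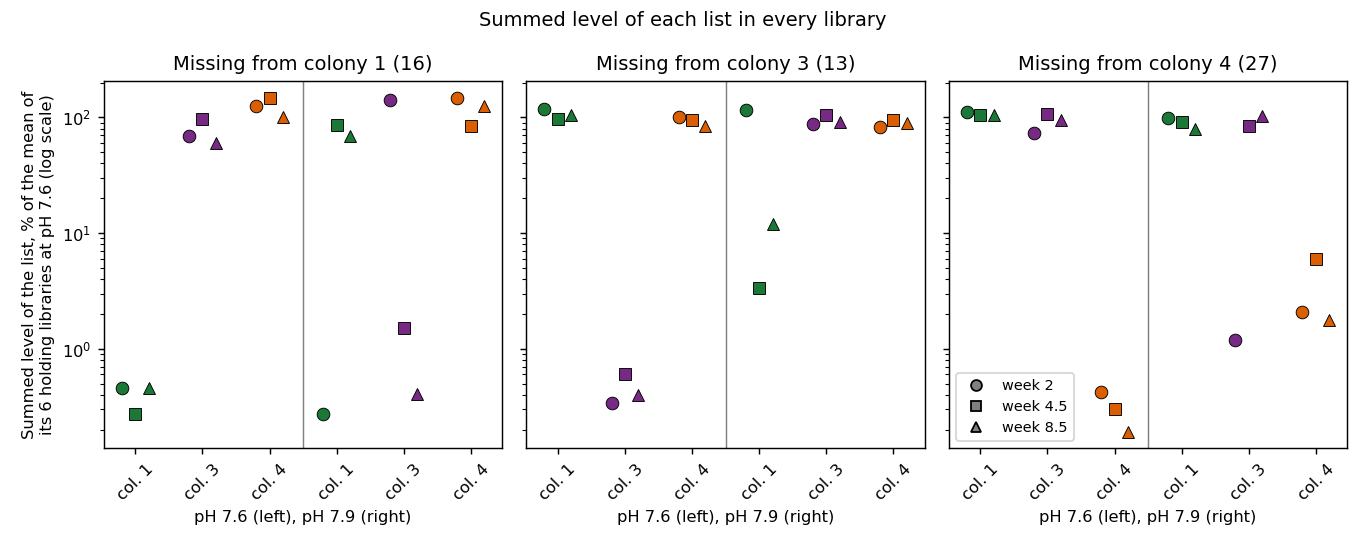
Summed level of each list, in per cent of its mean over the 6 holding libraries at pH 7.6 (logarithmic axis), in every library, by colony label and pH, with the week given by the symbol. At pH 7.9 the list for colony 4 lies between 1.76% and 5.92% in colony 4. It lies at 1.2%, 84.7% and 103% in the libraries labelled colony 3, in order of week. For the lists of colonies 1 and 3, libraries of the same label also lie both near 100% and under 15%.

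Member by member, the counts at pH 7.9 followed the likeness over the other transcripts closely. In the list for colony 1, all 16 members were lower in each of the 3 libraries most like that colony than in each of the other 6, against 15.2% of the transcripts with the same floor. The highest count in the 3 was 8 and the lowest in the 6 was 25. In the list for colony 4, all 27 were lower in each of the 4 most alike libraries than in each of the other 5, with a highest count of 26 and a lowest of 30, against 7.44%. In the list for colony 3 this held for 10 of 13 over 2 and 7 libraries, against 4.96%. These libraries were grouped by measured likeness and are not the study's groups, so no test is given for them here.

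By label, with all 9 libraries, 0 of 16 and 0 of 13 members were lower in all 3 libraries of the lacking colony than in the other 6, where 3.23% and 2.63% of transcripts with the same floor were. For colony 4 this held for 1 of 27, against 1.55%. That member, named after its values were seen, was Transcript_68274, with 1, 2 and 1 counts in colony 4, 233, 167 and 161 in colony 1, and 3, 183 and 264 in colony 3. It was also the only member of its list at 2 counts or fewer in all 3 colony 4 libraries at pH 7.9.

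The share of a list that remained in the low libraries varied more at pH 7.9 than at pH 7.6. At pH 7.6 the list for colony 4 stood at 0.421%, 0.299% and 0.192% of its holding mean in colony 4, where the ceiling of 2 counts held it down. At pH 7.9, where no ceiling applied, it stood at 2.06%, 5.92% and 1.76%. The week 4.5 library was the highest of the 3. There all 27 members had counts, with a median of 7.25% of their own holding mean and a highest of 16.7%, and 6 reached 10%. The 267 counts were split between the lanes as 124 and 143, so neither lane carried them alone. In the week 2 and week 8.5 libraries the medians were 2.4% and 1.67%, and no member reached 10%.

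When the rule was turned around and applied to the ceiling in colony 4 at pH 7.9, with the floor in colonies 1 and 3 still read at pH 7.6, only 2 transcripts qualified, 1 of them a member. This reading was added after the values were seen. In colony 4 at pH 7.6 those 2 transcripts had 0 to 3 counts.

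For the list of colony 1, the low libraries at pH 7.9 kept 0.271% in colony 1 at week 2, and 1.5% and 0.405% in the libraries labelled colony 3 at weeks 4.5 and 8.5. No member exceeded 5.42% of its holding mean in any of them. For the list of colony 3, the library labelled colony 1 at week 4.5 kept 3.37%, with no member over 6.61%. The library labelled colony 1 at week 8.5 kept 12.1%, and this came from few members.

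In that library, 4 of the 13 members, named after their values were seen, carried almost all of the counts. Transcript_71768 had 83 counts, or 61.6% of its holding mean, Transcript_82382 had 63, or 60.6%, Transcript_75077 had 49, or 50.5%, and Transcript_17938 had 42, or 29.5%. The other 9 had 0 to 5 counts, up to 1.62% of their holding mean. The 4 were seen in both lanes, with 49 and 34, 36 and 27, 18 and 31, and 17 and 25 counts. This library was also the one in which the best and second-best likeness lay closest, at 0.901 and 0.881, and it had the most transcripts with counts, 69841. Whether these features bear on the 4 transcripts was not tested.

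**Figure D3:**
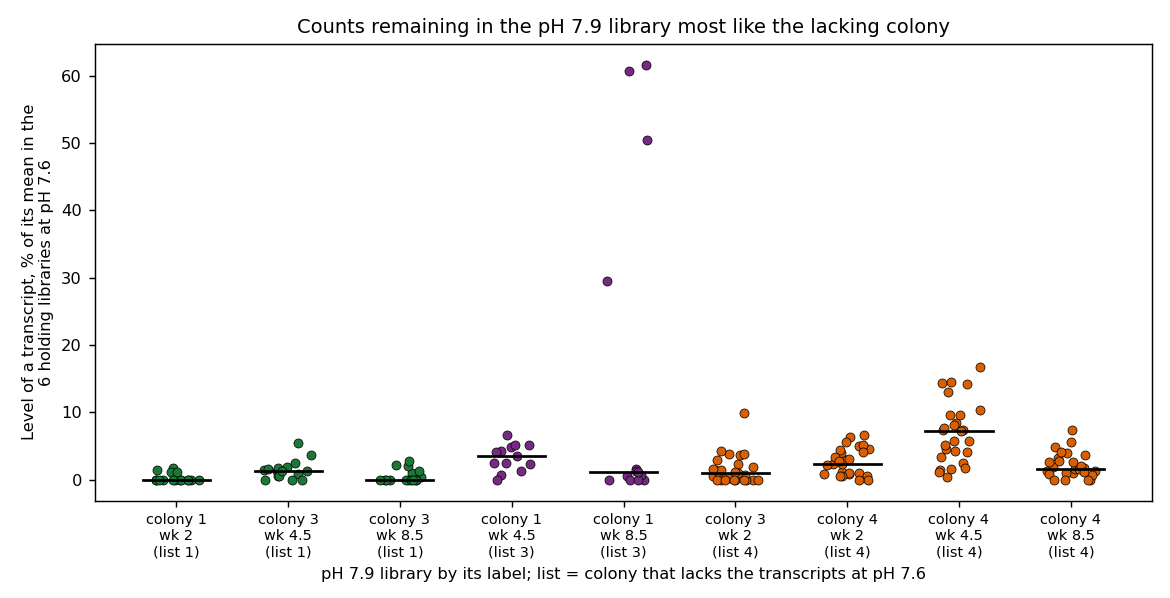
Level of every member in each pH 7.9 library, in per cent of the member's mean over its 6 holding libraries at pH 7.6, for the list of the colony that the library is most like; points are transcripts and bars their median. Medians lie between 0% and 7.25%, and 4 transcripts in the library labelled colony 1 at week 8.5 lie between 29.5% and 61.6%.

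Levels also varied among the libraries that held a list. Within the 6 holding libraries at pH 7.6, the highest CPM was a median of 3.24 times the lowest in the list for colony 1, 2.02 times in that for colony 3 and 3.02 times in that for colony 4. The most variable member was Transcript_73092, at 14.5 times. Mean CPM in one holding colony was a median of 1.47, 1.3 and 1.57 times that in the other for the 3 lists. It was 2 times or more in 6 of 16, 1 of 13 and 8 of 27 members.

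The difference between the holding colonies was tested with edgeR over their 6 libraries. These are counts the rule used, since it set a floor of 50 in each, and the floor limits how far the colonies can differ. The background is therefore also given for transcripts with the same floor. Of the 16 transcripts missing from colony 1, 1 differed between colonies 4 and 3, against 7.94% of 51389 transcripts and 3.45% of those with the floor. Of the 13 missing from colony 3, 0 differed between colonies 4 and 1, against 16.4% of 51544 and 10.2% of those with the floor. There 3 members and 14712 of all transcripts had an unadjusted p under 0.05, and DESeq2 called 1 member and 9704 transcripts. Of the 27 missing from colony 4, 3 differed between colonies 3 and 1, against 9.4% of 50367 and 4.4% of those with the floor. With week as a block, edgeR called 2 of 16, 4 of 13 and 3 of 27, against 8.25%, 25.5% and 10.4%. Median log2 fold changes were 0.40, -0.13 and -0.09, against -0.01, 0.02 and 0.01 over all transcripts. CPM did not overlap between the holding colonies in 6 of 16, 3 of 13 and 13 of 27 members, against 19.6%, 27.7% and 20.2% of the transcripts with the same floor.

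Transcript_64359, missing from colony 1, had 607, 297 and 293 counts in colony 4 and 99, 105 and 58 in colony 3 at pH 7.6, with no overlap. Its mean was 16.5 ± 8.03 CPM in colony 4 and 4.1 ± 1.46 CPM in colony 3 (SD, n = 3 each). The log2 fold change was 2.01 ± 0.45 (SE, edgeR, Benjamini-Hochberg adjusted p = 0.0216). Without the colony 4 library of week 2 it was 1.53 and no longer passed, and without the colony 3 library of week 8.5 it was 1.73 and did not pass either.

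Transcript_62425, missing from colony 4, had 261, 278 and 278 counts in colony 1 and 51, 70 and 86 in colony 3, with no overlap and little spread within a colony. Its mean was 12.2 ± 0.503 CPM in colony 1 and 3.14 ± 0.504 CPM in colony 3 (SD, n = 3 each). The log2 fold change of colony 3 over colony 1 was -1.97 ± 0.32 (SE, edgeR, adjusted p = 0.00383), and it was called under all 10 alternatives. Those alternatives refit the same libraries, whose counts the rule had used, so they are no independent check. The same holds for the other called members.

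Both other called members of that list were higher in colony 3. Transcript_69102 had 155, 191 and 252 counts in colony 3 and 77, 58 and 95 in colony 1, with no overlap. Its means were 9.07 ± 1.33 and 3.45 ± 0.893 CPM (SD, n = 3 each), and its log2 fold change was 1.38 ± 0.35 (SE, edgeR, adjusted p = 0.0347). Transcript_34095 had 187, 395 and 353 counts in colony 3 and 96, 173 and 97 in colony 1, again with no overlap. Its means were 14.2 ± 4.41 and 5.41 ± 1.65 CPM (SD, n = 3 each), and its log2 fold change was 1.37 ± 0.38 (SE, edgeR, adjusted p = 0.0471). Each was called under 5 of 10 alternatives and lost the call in 5 of the 6 fits without a library, all except the one without the colony 3 library of week 2.

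**Figure D4:**
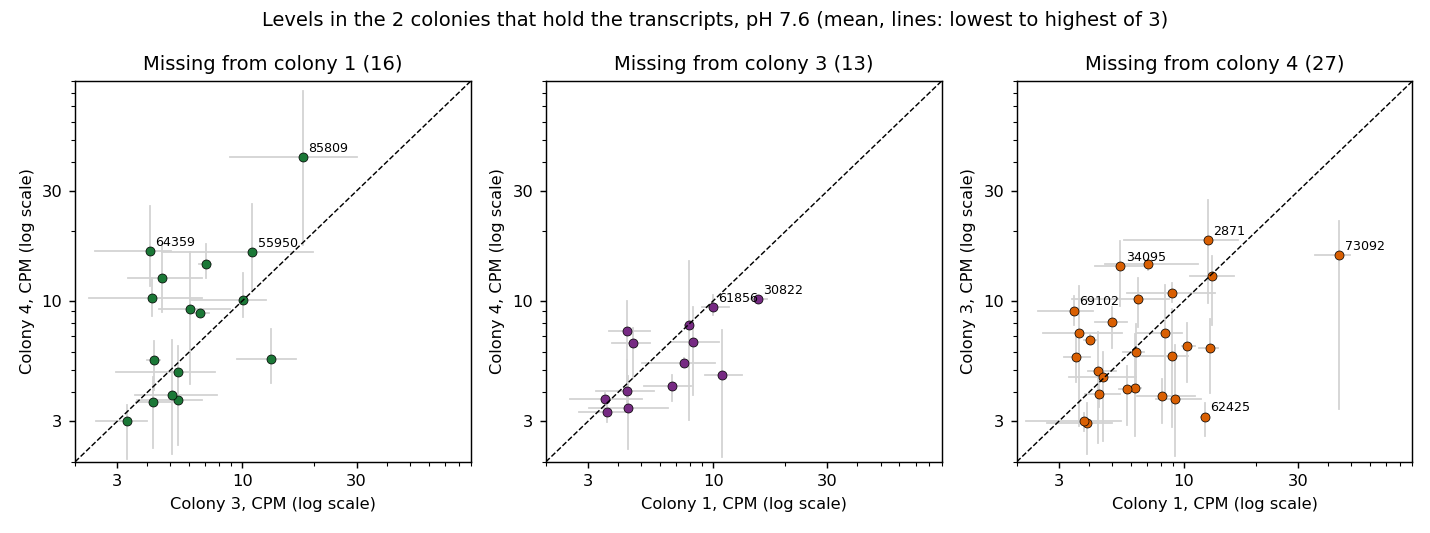
Mean CPM at pH 7.6 in the 2 colonies that hold each transcript (points; grey lines run from the lowest to the highest of 3 libraries; logarithmic axes; the dashed line marks equal levels), for the 3 lists, with the numbers of the named transcripts. Transcript_64359 lies well above the line and Transcript_62425 well under it.

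The pH 7.9 counts of the 3 members that differed between colonies 3 and 1 can be set beside the labels. Transcript_62425 had 264, 119 and 111 counts in the libraries labelled colony 1 and 0, 230 and 221 in those labelled colony 3. Transcript_69102 had 75, 168 and 158 in those labelled colony 1 and 1, 79 and 101 in those labelled colony 3. Transcript_34095 had 66, 176 and 173 in those labelled colony 1 and 0, 71 and 114 in those labelled colony 3. At weeks 4.5 and 8.5 the order of the labels was turned around from pH 7.6 for each of the 3. They were named for their values at pH 7.6, and the same reading was not made over all transcripts. The turn therefore only describes these members and sets them apart from nothing.

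Colony 4 was the colony in which the 3 libraries of each pH were all most like their own label, so the difference between pH levels was read there. Colony 4 held 29 members, the 16 missing from colony 1 and the 13 missing from colony 3. In edgeR's test of pH 7.6 against pH 7.9 within colony 4, 0 of 29 passed an adjusted p of 0.05, and 0% of 49575 transcripts did. An unadjusted p under 0.05 was reached by 5 members and by 5855 of all transcripts. The lowest Benjamini-Hochberg adjusted p of a member in edgeR was 0.398, and DESeq2 called 0 of the 29 and 363 of all transcripts. Log2 fold changes ran from -0.74 to 1.66, with 13 members higher at pH 7.6 and 16 lower. Their median was -0.03, against -0.02 over all transcripts, though the floor of 50 counts held at pH 7.6 only.

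Week by week, 5 of the 29 were higher at pH 7.6 in all 3 weeks, 3 were lower in all 3 and 21 were mixed. The same count was not made over all transcripts, so these numbers only describe the members and set them apart from nothing. The largest difference, named after its value was seen, was that of Transcript_53867, with 386, 107 and 172 counts at pH 7.6 and 113, 32 and 39 at pH 7.9. Its groups overlapped, since week 2 was high at each pH. Its log2 fold change was 1.66 ± 0.60 (SE, edgeR, adjusted p = 0.400). Transcript_64359 had 607, 297 and 293 counts at pH 7.6 and 218, 68 and 136 at pH 7.9, with no overlap in counts. Its log2 fold change was 1.31 ± 0.46 (SE, edgeR, adjusted p = 0.400). In a fit with week as a block the adjusted p in edgeR was 0.0659 for Transcript_53867 and 0.115 for Transcript_64359. No member was called in that fit. The rule set its floor at pH 7.6 only, which favours members that are higher at that pH. Transcript_64359 was also named for being higher in colony 4 than in colony 3 at pH 7.6. These p-values are therefore no independent test of a pH difference.

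**Figure D5:**
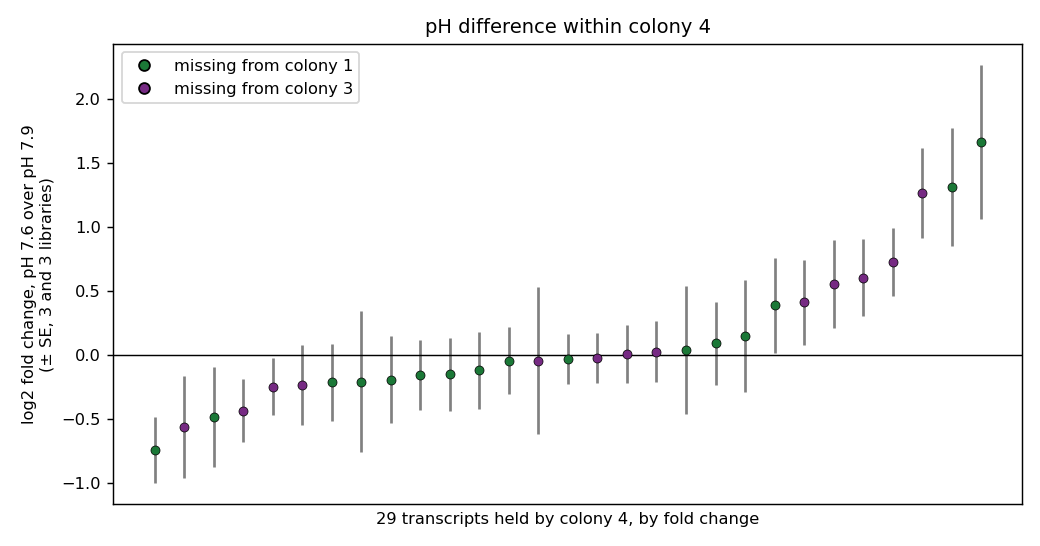
Log2 fold change of pH 7.6 over pH 7.9 in colony 4 for the 29 members it holds (points, coloured by the colony that lacks them, ordered by value; bars are ± 1 SE from edgeR, 3 libraries at each pH). Values run from -0.74 to 1.66, and none passed the adjusted threshold.

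Weeks were compared in the same colony with pH as a covariate. A difference between any weeks was called by edgeR for 0 of 29 members, against 0.0121% of 49575 transcripts, which is 6. The rule had set its floor in every low-pH library of this colony, which limits how far members can fall in any week. The background was not read over transcripts with the same floor. The counts of members called therefore only describe them and do not show that they varied less than other transcripts. An unadjusted p under 0.05 was reached by 6 members and by 4598 of all transcripts. The lowest Benjamini-Hochberg adjusted p of a member in edgeR was 0.121, and DESeq2 called 2 members and 1028 of all transcripts. From week 2 to week 8.5 the log2 fold changes ran from -1.40 to 0.67, with a median of -0.07 against -0.01 over all transcripts, and 0 of 29 members were called against a background of 0%. The lowest value was that of Transcript_53867, and the highest that of Transcript_8735.

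Transcript_8735 and Transcript_8736 were the only members with consecutive numbers, and both were missing from colony 1. Transcript_8735 had 211, 270 and 448 counts in colony 4 at pH 7.6 and 73, 72 and 163 in colony 3. Transcript_8736 had 97, 164 and 149 counts in colony 4 and 84, 98 and 96 in colony 3. In colony 1 they had 2, 0 and 1 counts and 1, 1 and 2 counts. Over the 12 libraries that held them, log2 CPM of the pair had a Pearson r of 0.512, which describes libraries that share colonies and depth. What a consecutive number means is not given in the sources used here.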

How the data were processed

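The deposited table holds raw read counts per transcript, whole numbers for 75743 transcripts in 36 columns, which are 18 libraries in 2 lanes each. Per the labels' protocols, a Qiagen RNeasy kit was used for RNA, and reads were single-end from an Illumina HiSeq instrument. Per the submitters' processing notes, FastQC, cutadapt 1.15, Trimmomatic 0.36 and DESeq2 were used. For the aligner, the counting tool and the reference transcripts, names were not given in the sources used here.

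Lanes were summed. Time points 1 to 3 were read as weeks 2, 4.5 and 8.5, the order in which the design lists them. The members, lists and tests were chosen with earlier results of these data known. CPM used TMM-scaled totals, while per cent of the holding mean used plain totals. Tests used edgeR 4.0.16 in R 4.3.3 (filterByExpr, TMM, quasi-likelihood F test, Benjamini-Hochberg adjustment over all transcripts tested, calls at an adjusted p under 0.05), fitted over the libraries of the comparison. All members passed the filter in every comparison they entered. The code was tested on simulated data. Named transcripts were the 2 most deeply read of each list and, for a comparison, at most 2 higher and 2 lower called members with groups that do not overlap; exceptions are stated.

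The replicate number is the time point, a shared sampling time in the labels. Deviations of same-week libraries correlated above 0.1 in 7 of 9 pairs of colonies at pH 7.6, 5 of 9 at pH 7.9 and 3 of 3 pairs within colony 4. Alternatives were DESeq2 1.42.0, DESeq2 size factors, no filter, week as a block, each library left out, and other thresholds of the rule.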

Additional observations from a re-analysis of the deposited data

Results flagged for a closer look

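Among the 9 sets of 6 libraries formed by a list and a colony label, the summed level of a list had a library far from the other 5 in 2 sets by Dixon's criterion. Chance meets it in about 1 set in 20, but that rate does not apply here, because the rule fixed the range of the 3 values at pH 7.6 in each set. Both are therefore given as descriptions. The transcripts missing from colony 4 stood at 1.2% of their holding mean in the library labelled colony 3, pH 7.9, week 2. The other 5 libraries labelled colony 3 lay between 73.8% and 107%, and the gap was 0.686 of the range. This library was most like colony 4 over the other transcripts. The same list stood at 5.92% in colony 4 at pH 7.9, week 4.5, where the other 5 libraries of colony 4 lay between 0.192% and 2.06% and the gap was 0.674 of the range. Of those 5, the 3 at pH 7.6 were held down by the ceiling of 2 counts.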

How the results depend on the processing

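How many transcripts qualified depended on the thresholds. For colonies 1, 3 and 4 in that order, a ceiling of 0 counts gave 3, 1 and 8, a ceiling of 5 gave 38, 25 and 51, a floor of 20 gave 62, 44 and 71 and a floor of 100 gave 6, 3 and 5. Leaving out 1 week gave 22 to 47, 13 to 21 and 40 to 42. Counts scaled to the median TMM library size gave 10, 11 and 24. With a ceiling of 1 and a floor of 25, lane 1 alone gave 18, 17 and 31. Lane 2 alone gave 15, 4 and 32. The lanes differed in the colony 4 library of week 2 at pH 7.6. There the list for colony 3 had 1455 counts in lane 1 and 305 in lane 2. The rule applied to the pH 7.9 libraries by label gave 0, 0 and 0, and the reading added after seeing the data, with the ceiling at pH 7.9, gave 2 for colony 4. At pH 7.9 the count of members called lower was 0 for colonies 1 and 3 in each of the fits without 1 library, and 0 to 27 for colony 4, where the fit without the colony 3 library of week 2 gave 27. Without the colony 1 library of week 2, edgeR called 3 of the 13 transcripts missing from colony 3 at pH 7.6 higher in the libraries labelled colony 3, among 8 calls over all 54364 transcripts. DESeq2 gave 25 for colony 4. Leaving out the 5 libraries that stood apart, picked out by measured likeness, left a lone library of colony 1. No count of called members is given for that fit. Each library was also placed in the colony it was most like, which is not the study's grouping. In that fit edgeR called 16, 10 and 27 members lower, and 4806, 2105 and 7178 of 54886 transcripts. Those groups were formed from measured values of the same libraries, so these calls do not test the lists. Between the holding colonies, DESeq2 called 4 members of the list for colony 1, among 5919 of 51389 transcripts, and 1 of that for colony 3, among 9704 of 51544. Leaving out 1 library gave 0 to 2, 0 to 1 and 1 to 4 for the 3 lists. Over all transcripts those fits called 2474 to 3894, 5299 to 7364 and 2657 to 5083, of 51995 to 53837 tested. With week as a replicate block the counts were 2, 4 and 3, against 8.25%, 25.5% and 10.4% of all transcripts. The block changed no other count of members called. Week within colony 4 was called for 2 members by DESeq2, among 1028 of 49575 transcripts, 2 without the filter on low counts, among 558 of 73006, and 0 to 2 without 1 library, where up to 1412 of 51319 transcripts were called. By label at pH 7.9, the log2 fold change of Transcript_85809 turned to 0.47 with the replicate block and 2.07 without the colony 3 library of week 2, ran from -1.82 to 2.07 without 1 library, and was -12.96 without the 5 libraries and -7.79 by likeness. Fitted values against a lone library at 0 depend on the prior count. That of Transcript_55950 ran from -0.82 to 2.67 without 1 library, and turned to -11.24 without the 5 libraries and -6.81 by likeness. By likeness Transcript_30822 turned to -4.81 and Transcript_61856 to -5.57. The causes were not tested. Low counts limit precision: near the ceiling a single count decides whether a transcript qualifies.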
